A study of Mus musculus with 20 samples.

Results

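Microglia, which are the brain's own macrophages, of mThy1-α-synuclein transgenic mice (Tg) were compared with those of wild-type mice (WT) at an age of 10 months. The comparison took 10 of the 20 libraries of the study, namely 5 Tg and 5 WT mice of that age, and 2224981 of the 2280867 windows of 1000 bp measured in them, namely all windows on the 19 autosomes. Both choices followed the sample labels and the chromosome names, and no measured value entered them. The other 10 libraries, from 6 Tg and 4 WT mice of 7 months, served to set classes of WT methylation and for a brief comparison. The study asked how α-synuclein, the protein that aggregates in Parkinson's disease, relates to gene regulation in microglia at 2 stages of disease. The assay was EM-seq, an enzymatic form of methylation sequencing in which unmethylated cytosines are converted and read as thymine.

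The Tg mice, labelled HEM, carry an X-linked transgene for normal human α-synuclein driven by the mouse Thy-1 promoter. The WT mice lack it. All animals were males, and no library pooled several brains. Both groups share the B6D2F1/J background, a cross of the inbred strains C57BL/6J and DBA/2J. The Thy-1 promoter is mainly active in neurons, so the microglia of this model live beside neurons that make the human protein. The labels name IBA1 for the selection of microglia and the methods name CD11b beads. The methods also state that libraries were sequenced in 2 batches, without a batch effect being detected. They add that both genotypes of each age were handled together up to the isolation of nucleic acids. The labels do not place the mice in the batches, so no value within a batch can be given.

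Methylation of cytosines that precede a guanine (CpG) is a chemical mark that is copied when cells divide. Most CpGs of a mammalian genome carry it, while CpG-rich promoters of active genes are usually free of it, and intermediate levels are common at enhancers and in mixtures of cells. A window read as 0% in one animal and near 100% in another can differ in the mark or in the underlying base. EM-seq reads thymine in both cases, and the DNA sequence of these mice was not used here, so these 2 cannot be told apart in the values below.

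The following stretches belong to windows on which the results turn, given on the plus strand of GRCm38.p6 (the mm10 assembly) with CpGs in capitals. Values exist per window and not per CpG. The 2 shortest stretches hold the only CpG of their window, and the others hold the 200 bases with most CpGs. The first 3 are from windows that were 0% in every WT mouse and the last 2 from windows at Thy1 and Emb, where methylation was partly lower in Tg mice.
Near Bst1, chr5:43817428-43817627, 3 of the 4 CpGs of its window: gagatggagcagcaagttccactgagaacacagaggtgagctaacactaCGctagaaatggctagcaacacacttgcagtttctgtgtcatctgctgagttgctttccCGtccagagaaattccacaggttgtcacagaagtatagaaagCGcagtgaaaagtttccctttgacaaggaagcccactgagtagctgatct
Fdx1 intron, chr9:51949230-51949309, the 1 CpG of its window: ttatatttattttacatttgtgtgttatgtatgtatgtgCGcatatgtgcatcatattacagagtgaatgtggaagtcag
Slc7a11 intron, chr3:49911059-49911138, the 1 CpG of its window: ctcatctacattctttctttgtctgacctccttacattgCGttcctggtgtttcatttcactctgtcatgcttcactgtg
Downstream of Thy1, chr9:44049581-44049780, 6 of the 14 CpGs of its window: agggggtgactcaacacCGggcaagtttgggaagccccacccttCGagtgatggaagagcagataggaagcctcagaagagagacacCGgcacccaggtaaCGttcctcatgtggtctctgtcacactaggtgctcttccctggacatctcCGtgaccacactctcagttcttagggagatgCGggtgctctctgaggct
Emb intron, chr13:117209019-117209218, 3 of the 6 CpGs of its window: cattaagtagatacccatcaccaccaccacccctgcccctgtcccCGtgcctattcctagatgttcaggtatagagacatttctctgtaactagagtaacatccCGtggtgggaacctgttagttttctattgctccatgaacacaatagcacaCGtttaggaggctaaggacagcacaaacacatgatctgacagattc

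Mean autosomal methylation was slightly lower in Tg mice. The mean over autosomal windows was 76.5% to 77.0% in the 5 Tg mice and 77.3% to 77.7% in the 5 WT mice, and the groups did not overlap. The difference was -0.736 points (p = 0.00794 by a two-sided exact permutation test, the smallest value that 5 mice against 5 allow). In the median window it was -0.58 points, and 58.0% of windows were lower in Tg mice. Nothing in the files gives the number of reads behind a value, so its precision is known only from the spread between mice.

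Every class of gene part took part in this shift. Windows within 2 kb of a transcription start, here called promoter windows, differed by -0.707 points and windows in exons by -0.670 points. Introns differed by -0.670 points and the space between genes by -0.799 points. In each of these 4 classes the groups did not overlap and the exact two-sided permutation test gave an adjusted p of 0.00794. Between genes, for example, the Tg mice had 76.0%, 75.7%, 75.7%, 75.3% and 75.2%, and the WT mice had 76.2%, 76.2%, 76.6%, 76.9% and 76.2%. The lowest WT value thus lay just above the highest Tg value.

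CpG density ordered the size of the shift without changing its direction. Windows with 1 to 4 reference CpGs differed by -0.890 points, those with 5 to 9 by -0.716 points and those with 10 to 19 by -0.653 points. CpG-dense windows, with 20 or more CpGs, had 62.4% ± 0.08 (SD, n = 5) in the Tg group and 62.9% ± 0.15 (SD, n = 5) in the WT group, a difference of -0.497 points. The adjusted p by exact permutation test was 0.00794 in each class. Differences between these classes were not tested.

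How the shift depended on the starting level changed with the mice that defined that level. When the mean of the 10-month WT mice set the classes, 26558 windows under 10% were higher in Tg mice by 1.30 points and 121614 windows at 10% to 50% by 1.06 points. The 859651 windows at 50% to 80% differed by -0.709 points, and the 1217158 windows over 80% differed by -0.978 points. These values are a description without a test, because the WT mice that set the classes also enter the difference, so that a WT mean that is low by chance places a window in a low class.

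With classes set by other animals, the 4 WT libraries of 7 months, no rise remained in the low classes. Windows under 10% differed by -0.112 points (exact two-sided permutation test, adjusted p = 0.714). At 10% to 50% the Tg mice had 38.0%, 37.8%, 38.2%, 37.5% and 36.9% and the WT mice 38.3%, 38.0%, 38.3%, 40.9% and 37.9%. WT replicate 4 stood above all others there, and the difference of -0.998 points had an adjusted p of 0.0635 (exact permutation test). It was -0.441 points without WT replicate 4, and it passed with an adjusted p of 0.0159 to 0.0317 (exact permutation test) under 4 alternatives, namely the median window, windows away from called ones, windows with at least 5 CpGs, and without WT replicate 5. At 50% to 80% the highest Tg mouse lay below the lowest WT mouse, with 70.1% ± 0.38 (SD, n = 5) against 71.2% ± 0.44 (SD, n = 5), a difference of -1.09 points and an adjusted p of 0.0317 (exact permutation test). Over 80% the difference was -0.439 points with an adjusted p of 0.0476 (exact permutation test), and leaving out any of 7 of the 10 mice raised that p above 0.05. One of the 7-month WT libraries, replicate 2, resembled Tg libraries in earlier results of these data. When the classes were set without it, windows under 10% differed by 0.432 points with an adjusted p of 0.0529 (exact permutation test).

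**Figure D1:**
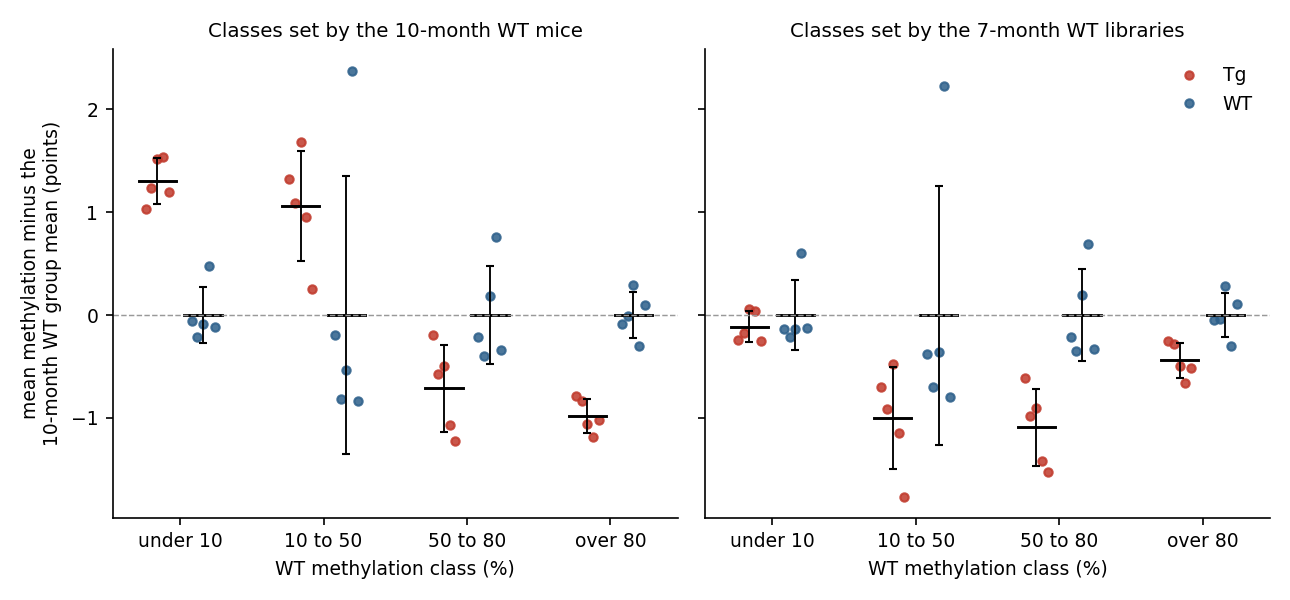
Mean methylation of each 10-month mouse in 4 classes of WT methylation, as the difference in points from the 10-month WT group mean, with classes set by the 10-month WT mice (left) or by the 7-month WT libraries (right). Points are mice, bars are group means and error bars are SD (n = 5). The Tg mice lie 1.30 points higher in the lowest class on the left and -0.112 points from WT on the right, while both panels place them lower above 50%.

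Single windows with large differences were mostly higher in Tg mice. A window was called when the group means differed by at least 25 points and limma gave a Benjamini-Hochberg adjusted p under 0.01, which gave 745 windows or 0.0335% of those tested. Of these, 580 (0.0261% of windows tested) were higher and 165 (0.00742%) were lower in Tg mice. By level in the WT mice, 291 called windows lay under 10%, and all of them were higher in Tg. The class at 10% to 50% held 175 higher and 9 lower, that at 50% to 80% held 114 higher and 42 lower, and that over 80% held 114, all lower. These counts describe where called windows started and were not tested. With a limit of 25 points, a window under 10% can only be called higher and one over 80% only lower, so the direction in these 2 classes is fixed. Just inside the limits were windows with differences of 25.06 and 25.08 points, and just outside were windows with 24.94 and -24.92 points.

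Many called windows went from absence to a high level. Of the 291 windows under 10% in WT, 71 had 10% to 50% in Tg mice, 173 had 50% to 80% and 47 had over 80%. In 247 called windows all 5 WT mice were at 0%, and in 29 all 5 Tg mice were at 0%. Called windows had few CpGs, with a median of 4 against 7 in all autosomal windows, and 123 (16.5%) held a single CpG against 2.79% of all windows. The called windows that rose had a median difference of 49.1 points and those that fell one of -40.2 points.

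**Figure D2:**
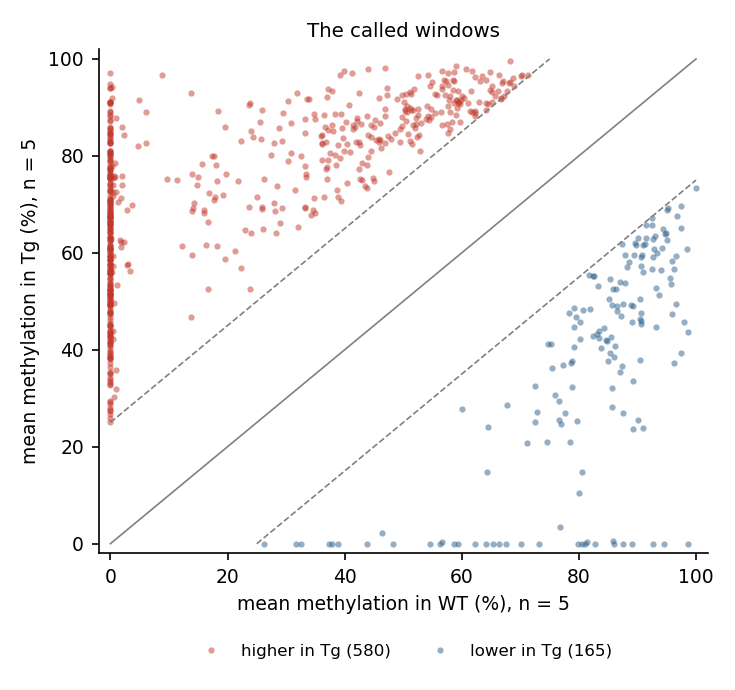
Mean methylation of the 745 called windows in WT mice (horizontal axis, percent) and Tg mice (vertical axis, percent), n = 5 mice each, with 580 windows higher in Tg in red and 165 lower in blue. The solid line marks equal levels and the dashed lines a difference of 25 points; a column of 247 windows stands at 0% in WT mice.

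The shift differed in size from chromosome to chromosome. Of the 19 autosomes, 14 were lower in Tg mice with an adjusted p under 0.05 by exact permutation test, and chromosomes 3 and 9 had positive differences. Chromosome 14, one of the 14, lost its call without WT replicate 1, 3 or 4 (adjusted p of 0.0603 to 0.0646, exact permutation test). Chromosome 1 passed without Tg replicate 1 or 3 and chromosome 2 without Tg replicate 1, with adjusted p values of 0.0215, 0.0323 and 0.0471 by exact permutation test. Both passed for the median window (adjusted p = 0.0283 and 0.0215, exact permutation test). Chromosome 1 also passed over windows with at least 5 CpGs (adjusted p = 0.0215, exact permutation test). Under the alternatives, 13 to 17 autosomes were lower with a call. Chromosome 8 differed by -1.86 points, chromosome 7 by -1.77 points, chromosome 19 by -1.36 points and chromosome 4 by -1.17 points. On chromosome 8 the Tg mice had 76.5%, 75.8%, 76.2%, 75.9% and 76.4% and the WT mice 77.8%, 77.9%, 78.3%, 78.5% and 77.4%. Chromosome 3 differed by 0.081 points (adjusted p = 0.810, exact permutation test), chromosome 9 by 0.136 points (adjusted p = 0.364, exact permutation test) and chromosome 5 by -0.065 points (adjusted p = 0.754, exact permutation test). These 3 chromosomes held 268, 61 and 114 called windows that were higher in Tg mice. Without windows within 1 Mb of a called window, chromosome 3 differed by -0.518 points and chromosome 9 by -0.201 points, neither past the threshold. Chromosome 5 then differed by -0.461 points (adjusted p = 0.0201, exact permutation test), and chromosomes 1 and 2 passed as well, with -0.816 and -0.526 points (adjusted p = 0.0126 and 0.0444, exact permutation test). Since most called windows were higher in Tg mice, leaving out their surroundings lowers what remains, so these values are no independent measure.

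**Figure D3:**
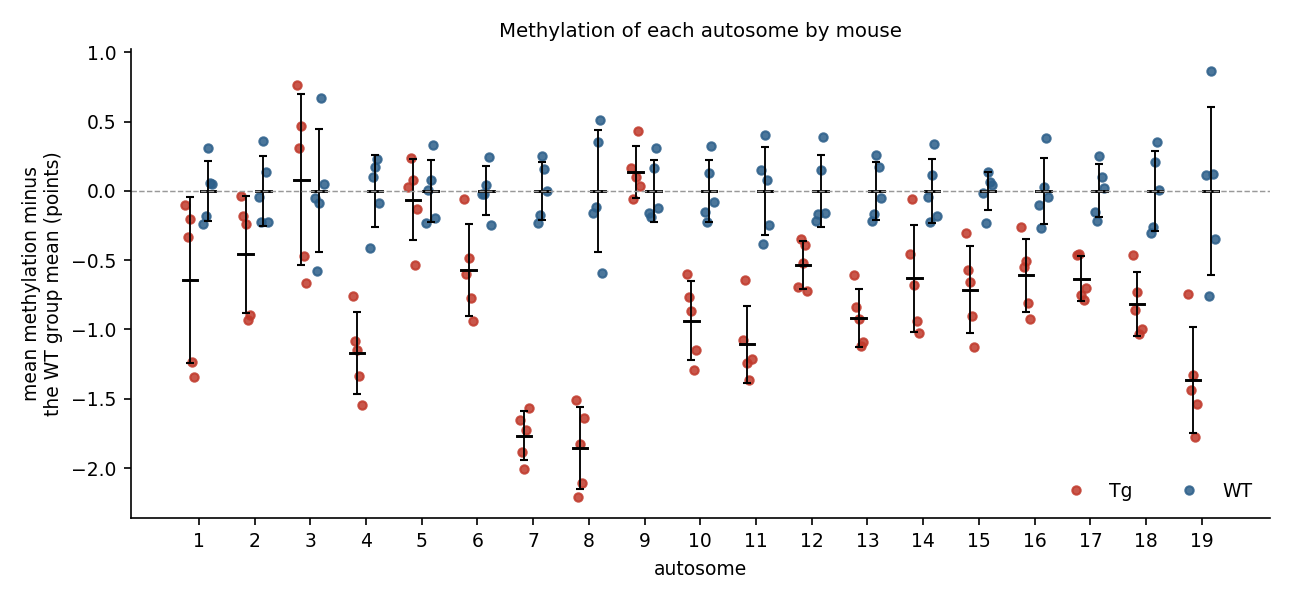
Mean methylation of each autosome in each 10-month mouse, as the difference in points from the WT group mean of that autosome. Points are mice, bars are group means and error bars are SD (n = 5). The Tg mice lie lowest on chromosomes 7 and 8, at -1.77 and -1.86 points. On chromosomes 1, 2, 3, 5, 6, 9, 14, 16 and 19 they overlap the WT mice.

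Within chromosomes the shift was widespread but uneven. Among 2400 segments of 1 Mb, 2090 were lower and 310 higher in Tg mice. The groups did not overlap in 928 segments (38.7% of the segments), 877 of them lower and 51 higher. Windows within 1 Mb of a called window, 9.61% of the autosomal windows, differed by 0.213 points on average, and all other windows differed by -0.836 points. The called differences themselves set this split, so it is a description without a test.

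Of the 8 segments with the largest falls, 7 lay on chromosomes 7 and 8. Between 60000001 and 65000000 on chromosome 7, 5 adjoining segments differed by -9.54, -10.7, -7.62, -8.56 and -8.18 points. In the segment from 61000001 to 62000000 the Tg mice had 52.9%, 52.6%, 53.4%, 58.0% and 62.6% and the WT mice 65.7%, 66.3%, 67.4%, 66.8% and 66.6%. The 5 WT mice lay close together there, while Tg replicates 4 and 5 lay between the other Tg mice and the WT mice. The first of these segments holds part of Snrpn, an imprinted gene of the region affected in Prader-Willi syndrome, whose gene body (125 windows) had 59.7% ± 3.8 (SD, n = 5) in the Tg group and 67.3% ± 0.7 (SD, n = 5) in the WT group (limma, adjusted p = 0.0384). On chromosome 8, the segments from 30000001 and from 37000001 differed by -8.99 and -8.47 points. No window was called in those 2 segments.

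The 8 segments with the largest rises lay on chromosomes 3, 5 and 16. From 48000001 to 51000000 on chromosome 3, 3 adjoining segments differed by 10.5, 12.1 and 8.63 points and held 66, 57 and 51 called windows. On chromosome 16, the segments from 6000001 and from 7000001 differed by 7.47 and 9.33 points. In the latter, Tg mice had 83.0% to 83.9%, and WT mice had 77.2%, 72.8%, 71.0%, 72.0% and 77.9%, so that the WT mice fell into a higher pair and a lower group of 3.

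Called windows lay in runs of one direction. When called windows up to 1 Mb apart were joined, they formed 92 runs, of which 39 held a single window and 53 held 2 or more. In 52 of those 53 every called window had the same direction. The 6 runs with most called windows held 422 of the 745.

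The run with most members spanned 3506 kb of chromosome 3 and held 203 called windows, all higher in Tg mice. Over its 2753 windows the Tg mice had 77.3%, 76.7%, 77.4%, 76.8% and 76.2% and the WT mice 66.2%, 65.9%, 66.6%, 66.9% and 65.9%, a difference of 10.6 points. The SD was 0.49 points in the Tg and 0.43 points in the WT mice, far below the distance between the groups. Its called windows within protein-coding genes, 33 in number, all lay in the annotated span of Slc7a11, from 49892526 to 50443614. Slc7a11 encodes the cystine transporter that supplies cysteine for glutathione and thereby limits oxidative damage.

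The next run spanned 2355 kb of chromosome 13 and held 72 called windows, all lower in Tg mice. Its 2153 windows had 70.3% ± 0.48 (SD, n = 5) in the Tg group and 76.7% ± 0.47 (SD, n = 5) in the WT group. Genes with called windows in it included Parp8, of the ADP-ribosyltransferase family, and Emb, an immunoglobulin-family partner of monocarboxylate transporters. A second run on chromosome 13, 6862 kb long, held 26 called windows, all lower, in genes that included Pde4d, a cyclic AMP phosphodiesterase, and Map3k1, a kinase of the JNK pathway. Pde4d alone held 11 of them.

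Both large runs of chromosome 5 were higher in Tg mice. The longer, 10930 kb, held 59 called windows in genes that included Kcnip4, a subunit that modulates potassium channels, and Cd38, an enzyme that consumes NAD. Over its 9900 windows the difference was 2.06 points. The other, 5982 kb, held 36 called windows, with a difference of 1.58 points. The run on chromosome 16 held 26 called windows, all higher, over 2090 kb, and 13 of them lay in Rbfox1, a neuronal splicing factor.

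Bst1, a neighbour of Cd38 that encodes a related enzyme and lies at a locus linked to Parkinson's disease in human association studies, had the called window with the largest rise near a gene start. The window at chr5:43817001-43818000, whose stretch opens the sequences above, lies 1385 bp from the start of Bst1 and inside Fbxl5. It had 96.0%, 93.6%, 90.2%, 59.0% and 85.7% in the Tg mice and 0% in all WT mice (limma, adjusted p = 3.64e-05). A window in Fdx1, the mitochondrial ferredoxin of steroid synthesis, had 62.3%, 70.8%, 60.7%, 88.6% and 53.3% in the Tg mice and 0% in all WT mice (limma, adjusted p = 1.55e-05). It lies 794 bp from a transcript start and 14102 bp from the start that RefSeq gives. A window at Gm597 also had 0% in all WT mice and differed by 52.4 points (limma, adjusted p = 7.26e-06). In all 3 windows the groups did not overlap, and Tg replicate 4 stood apart from the other Tg mice at Bst1 and at Gm597.

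Other called windows near starts or in exons moved between intermediate and high levels. In this set, limited to 6 windows per direction with at most 1 per 5 Mb, those that rose also included Paqr8, a membrane progestin receptor, by 35.7 points, Nde1, a protein of the mitotic spindle and of migrating neurons, by 34.0 points, and Fgf2, a growth factor, by 27.8 points. Those that fell were in Crtc3, a coactivator of CREB, Thy1, Parp8, Olfr293, Gm9495 and Mdm1, with differences of -42.2, -40.0, -37.3, -27.6, -27.1 and -25.5 points. Starts here are those of any annotated transcript. The windows of Nde1, Crtc3 and Mdm1, none of them in an exon, lay 10225.5, 88376.5 and 13713.5 bp from the start that RefSeq gives. Those of Paqr8 and Olfr293 lay 1660.5 and 1836.5 bp from it. In all 12 windows the groups did not overlap, against 1.73% of all autosomal windows, which their selection for large called differences nearly fixes. The calls of Paqr8, Nde1, Fgf2, Olfr293, Gm9495 and Mdm1 were lost when any of 9 or more of the 10 mice was left out, and that of Crtc3 without any of 3 mice. Of the called windows, 17 lay near a start or in an exon of a protein-coding gene, and 195 lay somewhere in 87 protein-coding genes. Over genes of every type, promoter windows were 5.23% of called and 11.7% of all autosomal windows, and exon windows 0.940% and 2.82%. Introns held 27.4% of called and 38.2% of all windows, and the space between genes 66.4% and 47.3%. These shares were not tested.

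Thy1, the surface protein of neurons and T cells whose promoter drives the transgene, was lower in Tg mice at several places along the gene. Of 16 windows from 5 kb before to 5 kb after it, 12 were lower in Tg mice, 9, of which 1 was higher, did not overlap between the groups (1.73% of all autosomal windows did not) and 3 were called, all lower. The window at the start of the gene, with 42 CpGs, was low in both groups, with 4.65% ± 0.09 (SD, n = 5) in the Tg group and 4.20% ± 0.75 (SD, n = 5) in the WT group. At 44048001 to 44049000, which covers the end of the gene, the Tg mice had 31.5%, 30.2%, 31.2%, 33.8% and 35.7% and the WT mice 71.1%, 76.9%, 72.3%, 70.2% and 71.6% (limma, adjusted p = 0.000322). In the next window, printed in part above, Tg mice had 46.5%, 48.5%, 50.7%, 52.9% and 53.5% and WT mice 82.4%, 80.5%, 83.6%, 89.0% and 90.5% (limma, adjusted p = 0.00311). Beyond 8 kb from the start the groups overlapped again. The transgene carries Thy1 sequence, and whether its copies add reads to these windows was not tested.

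**Figure D4:**
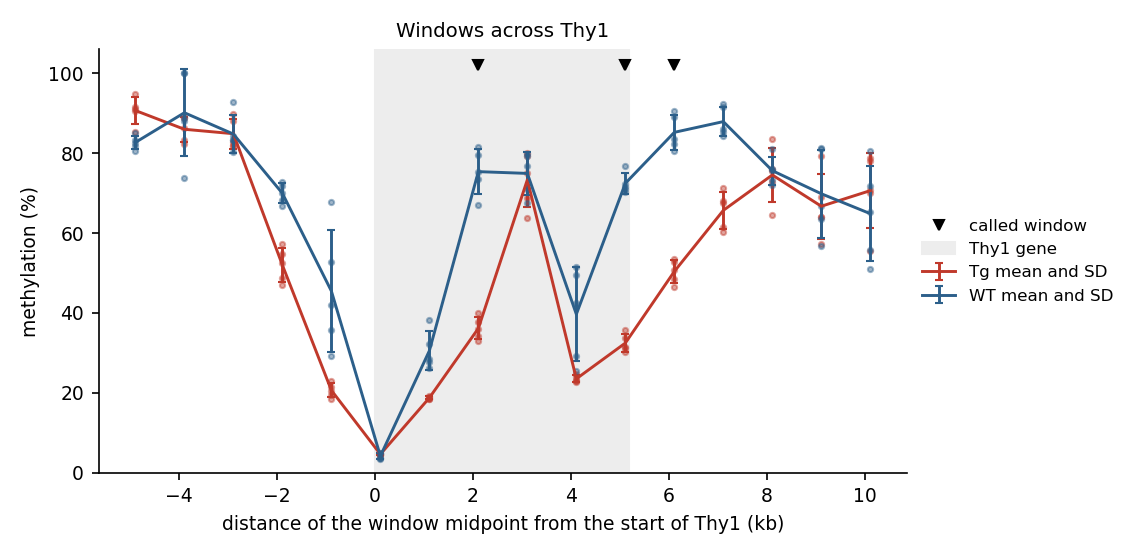
Methylation in percent of 16 windows across Thy1 against the distance of the window midpoint from the gene start in kb, with each mouse as a point and the mean and SD (n = 5) of Tg in red and WT in blue. Grey marks the gene and triangles the 3 called windows, in which Tg mice lie 34.8 to 40.0 points lower.

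Most called gene bodies, like most gene bodies in general, were lower in Tg mice. A gene body was the mean of windows inside a protein-coding gene and outside 2 kb of any start, in genes with at least 3 such windows, and 327 of 15032 autosomal genes passed an adjusted p under 0.05 by limma (2.18%). This count fell to between 105 (without Tg replicate 3) and 288 (without Tg replicate 4) when 1 mouse was left out, so the share of 2.18% holds for the full set of mice. Of the 327 called, 231 were lower (1.54%) and 96 higher (0.639%) in Tg mice, where 75.4% of all gene bodies tested were lower. The median over all gene bodies was -0.60 points, over the called lower ones -4.44 points and over the called higher ones 5.58 points. Of the 327, 40 contained a called window and 287 did not. Among all protein-coding genes, 87 held a called window anywhere, near a start or elsewhere. Gene bodies were called at a looser threshold than windows and without a minimum difference. At an adjusted p under 0.01 by limma, as used for windows, 36 gene bodies were called. A called window also moves the mean of its gene, so the 2 kinds of call are not independent. Chromosomes 7 and 8 held 68 and 50 of the 327 called gene bodies, all but 1 lower, and chromosomes 3, 5 and 9 held 20, 20 and 26 that were higher.

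Slc7a11 had the lowest adjusted p among the gene bodies named here. Over its 453 windows Slc7a11 had 78.8%, 77.8%, 78.4%, 77.9% and 77.3% in the Tg mice and 67.5%, 66.7%, 68.2%, 68.0% and 67.1% in the WT mice, a difference of 10.5 points (log2 ratio 0.75, SE 0.04, limma, adjusted p = 1.84e-05). Without its called windows it still differed by 7.47 points. The 453 windows cover the gene as annotated here, from 49892526 to 50443614 on the minus strand. The stretch printed above lies near the end of that span, far from the start. The extent that RefSeq gives for Slc7a11 was not compared, so the values hold for the annotated span. The distance between the groups was many times the spread within them.

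Among genes that rose, Sirpb1b, a paired receptor of myeloid cells, had 70.2% ± 1.0 (SD, n = 5) in the Tg group and 50.9% ± 7.6 (SD, n = 5) in the WT group over 46 windows (limma, adjusted p = 0.0132). Polr3f, a subunit of RNA polymerase III, rose by 16.4 points, Exosc9, a component of the RNA exosome, by 13.6 points, and Rexo2, a mitochondrial oligoribonuclease, by 10.3 points. Ttk, a kinase of the spindle checkpoint, rose by 10.5 points and Lhfpl3 by 9.34 points. Polr3f, Exosc9, Rexo2 and Mterf1b rested on 3 or 4 windows each, and Lhfpl3 on 447. The calls of Exosc9, Rexo2, Mterf1b and Lhfpl3, and those of Skint7 and Serpina3f below, were lost when any of 7 or more of the 10 mice was left out. Those of Ttk and of Olfr1494 below were lost without any of 4 and 3 mice.

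Among genes that fell, several belong to families of near-identical neighbours, where reads can be shared between copies and single values are uncertain. Skint7, of a family of immunoglobulin-like proteins of epithelia, had 18.8% ± 8.0 (SD, n = 5) in the Tg group and 52.3% ± 17 (SD, n = 5) in the WT group over 3 windows (limma, adjusted p = 0.0447). Beside the 2.18% called among all gene bodies, 6 of the 7 measured Skint genes were called, all lower, with a median of -20.1 points. Of 10 Serpina3 genes, which encode secreted protease inhibitors, 5 were called, all lower, with a median of -8.46 points, and Serpina3f differed by -14.9 points. Olfr292 and Olfr1494, olfactory receptors, differed by -26.1 and -13.0 points, while 3 of 273 olfactory receptor genes were called in all, a share below that of all gene bodies, with a median of -0.95 points. Both called Sirpb1 genes, of 5 measured, were higher. These families were taken up after members had shown large called differences, so their shares are a description and no independent support. Neighbouring members are also not independent of each other.

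Single-copy genes fell as well. Agap2, an activator of GTP hydrolysis that acts on PI 3-kinase signaling in neurons, had 65.0%, 63.5%, 56.0%, 61.6% and 57.2% in the Tg mice and 73.8%, 78.0%, 76.6%, 70.8% and 74.8% in the WT mice (limma, adjusted p = 0.00898). Tm2d3 had 75.6% ± 6.0 (SD, n = 5) in the Tg group and 89.0% ± 1.0 (SD, n = 5) in the WT group (limma, adjusted p = 0.0138). In both genes the groups did not overlap, as in 6.38% of all gene bodies tested.

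**Figure D5:**
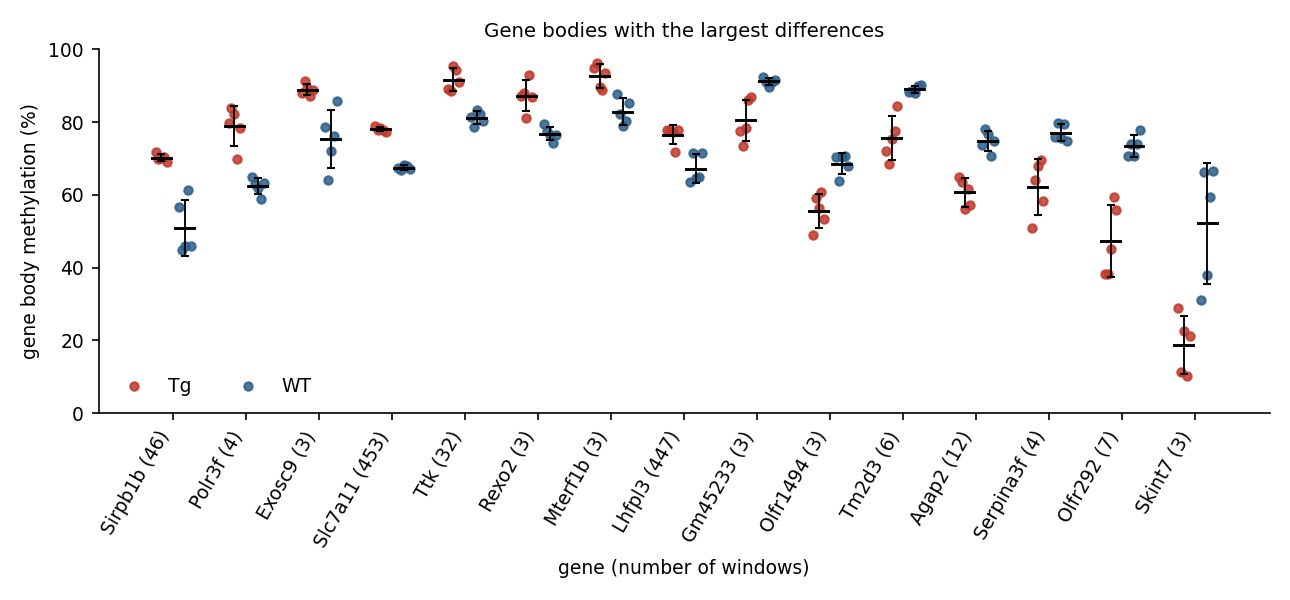
Gene body methylation in percent of the 15 autosomal genes named here for the largest called differences, with the number of windows in parentheses. Points are mice, bars are group means and error bars are SD (n = 5). Slc7a11, with 453 windows, shows tight groups, while Skint7, with 3 windows, has the widest.

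Few promoters differed when each was taken as the mean of windows within 1 kb of the gene's outermost start. Of 20354 autosomal promoters, 5 passed an adjusted p under 0.05 by limma (0.0246%), and all were lower in Tg mice. The count was 3 to 8 when 1 mouse was left out. The Emb promoter had 69.7%, 68.2%, 65.9%, 63.7% and 71.4% in the Tg mice and 91.3%, 92.0%, 88.3%, 92.7% and 93.0% in the WT mice (limma, adjusted p = 0.000555). Its called window, printed in part above, had 60.1% ± 0.87 (SD, n = 5) in the Tg group and 93.4% ± 2.2 (SD, n = 5) in the WT group. RefSeq places the start of Emb 12037 bp downstream, where 97 CpGs in 2 windows had 6.29% in Tg and 8.11% in WT mice and no window was called. The difference at Emb thus concerned an alternative start in a methylated region, and the CpG-rich start was low in both groups.

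The promoter shared by Usmg5, a small subunit of the mitochondrial ATP synthase, and Pdcd11, a protein of ribosome assembly, was almost free of methylation in Tg mice. It had 0.61%, 0.67%, 0.46%, 0.27% and 0.61% in the Tg mice and 3.44%, 4.74%, 3.01%, 3.59% and 6.55% in the WT mice (limma, adjusted p = 0.00594). Both genes count among the 5, although they rest on the same 2 windows. Serpina16 differed by -16.9 points and AI429214 by -5.98 points, both with an adjusted p of 0.0322 by limma. Neither of these held a called window, and both calls were lost when any of 8 or more of the 10 mice was left out.

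Genes that mark microglia were mostly lower in Tg mice, with few single members called. Of 19 microglial marker genes with a measured gene body, 18 were lower, against 75.4% of all gene bodies, with a median of -2.25 points against -0.60 points. Their mean level was 62.4%, 62.8%, 62.5%, 61.5% and 60.9% in the Tg mice and 64.4%, 62.9%, 63.9%, 67.6% and 63.5% in the WT mice. WT replicate 4 stood highest, and without it the difference shrank from -2.45 to -1.67 points. Ctss, the lysosomal protease cathepsin S, was the 1 member called, with a difference of -2.04 points (limma, adjusted p = 0.0447). Among all gene bodies 2.18% were called. Irf8, the median member and a transcription factor of myeloid cells, differed by -2.25 points without passing the test, and Cx3cr1, the fractalkine receptor, by 1.07 points. Of 25 microglial promoters 22 were lower, against 60.5% of all promoters, and the median was -1.73 points against -0.37 points over all promoters. None of the 25 was called, as against 0.0246% of all promoters. The mean of these promoters differed by -2.03 points, and by -0.715 points without WT replicate 4.

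Markers of other cells were mostly lower as well, as were 75.4% of all gene bodies, whose median was -0.60 points. No difference between the lists was tested. Neuronal gene bodies had a median difference of -0.76 points (8 of 9 lower), astrocyte ones -0.53 points (7 of 8 lower), oligodendrocyte ones -0.81 points (6 of 7 lower) and endothelial ones -0.68 points (4 of 5 lower). For markers of other leukocytes it was -0.23 points (3 of 5 lower), while their mean differed by 0.93 points. Without WT replicate 4 the mean of the astrocyte gene bodies differed by -1.78 points, close to the -1.67 points of the microglial ones, and the mean of the neuronal promoters differed by -1.67 points, more than the -0.715 points of the microglial promoters. The mean levels of these lists overlapped between the groups, with neuronal markers at 73.1% to 74.9% in Tg and 74.0% to 75.2% in WT mice. Among these lists 1 gene body was called, that of Mobp, a myelin protein, where 2.18% of all gene bodies were called. It had 67.8% ± 2.2 (SD, n = 5) in the Tg group and 62.2% ± 1.2 (SD, n = 5) in the WT group (limma, adjusted p = 0.0361). The list was not tested as a whole, and the part that the cell makeup of the libraries had in the results above was not tested. In such bulk samples, a different mix of cells and a different methylation level per cell cannot be told apart.

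Gene groups tied to microglial state and disease are given beside the 2.18% of all gene bodies that were called and the 75.4% that were lower. All 15 measured gene bodies of the disease-associated microglia program were lower, with a median of -1.11 points, and none was called. Examples are Lpl, a lipase, with -1.84 points (limma, adjusted p = 0.256) and Itgax, the median member, with -1.11 points (limma, adjusted p = 0.371). Of 19 genes of innate sensing and inflammation 13 were lower, with a median of -0.34 points, and Tlr1, a receptor for bacterial lipopeptides, was called higher with 92.2% ± 2.7 (SD, n = 5) in the Tg group and 86.4% ± 1.4 (SD, n = 5) in the WT group (limma, adjusted p = 0.0478). Its groups overlapped, as Tg replicate 1 had 88.1% and WT replicate 2 had 88.8%. No promoter of either group was called, with medians of -1.18 and -0.78 points.

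Of 16 gene bodies linked to Parkinson's disease 10 were lower, with a median of -0.40 points. Synj1, a phosphatase of synaptic vesicle recycling, was called with a difference of -2.13 points (limma, adjusted p = 0.0383), and Vps35, of the retromer, differed by -3.85 points without passing the test. Of 14 genes of the methylation machinery none was called, with a median of -0.25 points, and Tet2, an enzyme that oxidizes methylcytosine, differed by -1.07 points (limma, adjusted p = 0.186). Of the 13 measured genes of the imprinted list only Snrpn was called (Ube3a, an imprinted gene outside the list, was called as well), and the median was -0.04 points. Of 12 genes of oxidative stress and mitochondria only Slc7a11 was called, with a median of -0.59 points and a mean of 0.27 points, and of 11 lipid and nuclear receptor genes none, with a median of -0.59 points. No promoter of these 5 groups was called. Their medians were -0.70, -0.17, 0.21, -0.21 and -0.84 points in the same order of groups.

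At 7 months, with classes set by the 10-month WT mice, none of the 4 classes of WT methylation differed beyond the spread between the 6 Tg and 4 WT libraries. The differences were 0.091, -1.14, -0.787 and -0.144 points from the lowest to the highest class, with adjusted p values of 0.400 to 0.524 by exact permutation test. For the difference between ages, the 10-month values were those with classes set by the 7-month WT libraries. The windows compared were thus not the same at both ages, with 26084 under 10% at 7 months. No difference between ages passed by exact permutation, with adjusted p values of 0.736 to 0.888, which does not show that the ages are alike. The 7-month groups are as labelled, and 2 of their libraries, Tg replicate 6 and WT replicate 2, went against their labels in earlier results of these data. Without them the adjusted p values at 7 months were 0.167 to 0.429 by exact permutation test. Those of the difference between ages were then 0.387 to 0.927 by exact permutation.

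Of the 12 windows named near starts or in exons, 11 were measured at 7 months and all 11 differed there in the same direction as at 10 months, as labelled and without those 2 libraries. At Bst1, 3 of the 4 WT libraries had 0% and WT replicate 2 had 59.2%, while Tg replicate 4 also had 0% and the other Tg libraries had 29.0% to 60.4%. In the Slc7a11 window printed above the WT libraries had 78.6%, 86.7%, 0% and 33.3%, so the value of 0% seen in all 10-month WT mice was not general among WT animals. The Parp8 window had 92.0% to 96.2% in WT replicates 1, 3 and 4 and 52.2% to 76.8% in Tg replicates 1 to 5. The other two libraries had 96.95% (Tg replicate 6) and 73.8% (WT replicate 2) there.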

How the data were processed

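EM-seq libraries were made from microglia of single mice. Per the study's methods and the submitters' processing notes, the authors trimmed reads with Trim Galore 0.6.7, aligned them with Bismark 0.23.1 and Bowtie2 2.2.5, and tiled CpGs into 1000 bp windows with methylKit 1.22.0 (mm10). The deposited values are the fraction of methylated calls per window, processed by the authors separately at each age and printed here as percent. Read counts per window were not used here, so the depth is unknown and the study's count-based test was not run.

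For the 10-month table, log2 ratios of (percent + 1) to (101 - percent) were compared between 5 Tg and 5 WT mice with limma 3.58.1 in R 4.3.3, with Benjamini-Hochberg adjustment over all windows, gene bodies or promoters of the table. Class means were compared by exact two-sided permutation of the mice (252 arrangements), adjusted over the classes of each split. Genes and gene parts came from GENCODE mouse annotation, and printed sequences and CpG numbers from the RefSeq GRCm38.p6 assembly. Named were 6 windows per direction near starts or in exons of protein-coding genes with the largest called differences (at most 1 per 5 Mb), 8 gene bodies per direction, the called promoters, the 6 runs with most called windows, and Thy1. Some items that this rule names are not reported here. Members and lists were chosen with earlier results of these data known. In simulated data, limma called 121 of 200 windows lowered by 50 points (2280867 tested, 0 unchanged ones called), 184 of 200 gene bodies lowered by 10 points (15550 tested, 9 unchanged) and 61 of 200 promoters lowered by 10 points (21113 tested, 4 unchanged). Each library is a separate mouse, and litters are not given, so p-values measure the spread between these mice. Alternatives covered the scale, pseudocount, variance trend, thresholds, CpG number, replicate block and leaving out each mouse. The split by repeats, the gene families, the 1 Mb segments, the RefSeq starts and the 7-month values of named windows were added after seeing the data.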

Additional observations from a re-analysis of the deposited data

Results flagged for a closer look

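A single mouse stood far from the other 4 of its group in 9 of 98 groups of values examined, where chance gives about 1 in 20, or 4.9. WT replicate 4 was one of them in both low classes of WT methylation. With classes from the 7-month WT libraries it had 4.62% under 10% (others 3.80% to 3.89%) and 40.9% at 10% to 50% (others 37.9% to 38.3%). With classes from the 10-month WT mice it had 3.97% (others 3.29% to 3.44%) and 38.4% (others 35.2% to 35.8%). It was also highest in the Paqr8 window, with 55.7% against 38.3% to 42.9%. WT replicate 3 had 82.5% in exons, against 82.1% to 82.2%. Tg replicate 4 was low in 3 places: the Bst1 window with 59.0% against 85.7% to 96.0%, the Gm597 window with 29.6% against 53.0% to 62.5%, and the Lhfpl3 gene body with 71.8% against 77.4% to 77.9%.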

How the results depend on the processing

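The mean autosomal difference (-0.836 to -0.669 points) and those of the gene parts, CpG classes and repeat classes kept direction and side of the threshold under every alternative run. The causes of the following changes were not tested. Under 10%, the 7-month split gave 0.432 points without 7-month WT replicate 2 in the classes and 1.30 points with 10-month classes, and -0.164 to 0.0403 points leaving out 1 mouse, above 0 only without WT replicate 4. At 10% to 50%, the median window gave -1.33 points, windows away from called ones -1.53 points, windows with at least 5 CpGs -1.10 points, 10-month classes 1.06 points, and leaving out 1 mouse -1.20 to -0.441 points, the weakest without WT replicate 4. At 50% to 80%, leaving out 1 mouse gave -1.21 to -0.917 points, losing the call without WT replicate 3. The difference was then -1.04 points (adjusted p = 0.0635, exact permutation test) and the groups still did not overlap. Over 80%, it was -0.978 points with 10-month classes and -0.515 to -0.368 points leaving out 1 mouse. Chromosome 3 turned negative for the median window (-0.146) and away from called windows (-0.518), with -0.0891 to 0.267 points leaving out 1 mouse. Chromosome 9 did so likewise (-0.0832 and -0.201), and chromosomes 1, 2 and 5 gained calls away from called windows (-0.816, -0.526 and -0.461). Chromosome 5 ranged from -0.140 to 0.0525 points leaving out 1 mouse.

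Called windows numbered 436 with at least 5 CpGs, 1830 at an adjusted p under 0.05, and 470 (without WT replicate 3) to 782 (without Tg replicate 5) leaving out 1 mouse. The share higher in Tg was 77.9% in the main test, 67.7% with at least 5 CpGs and 66.8% without Tg replicate 5. Called gene bodies numbered 36 at an adjusted p under 0.01 and 105 (without Tg replicate 3) to 288 (without Tg replicate 4) leaving out 1 mouse. Called promoters numbered 2 on the percent scale, 3 at an adjusted p under 0.01 and 3 to 8 leaving out 1 mouse. Replicate numbers are shared by the labels, but same-numbered mice did not deviate together (correlations of -0.0291 to 0.00985 over gene bodies), so they share only a number. With the replicate block, 231 windows (88.7% higher), 23 gene bodies and 1 promoter were called. Of 31 named windows and genes none reversed, and 7 kept their call under every alternative. Unknown depth limits what single windows with few CpGs can show.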

Other observations

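Repeat content did not order the shift. Windows with under 20% repeats differed by -0.732 points, those with 20% to 60% by -0.743 points and those with over 60% by -0.724 points. Exact permutation tests gave adjusted p values of 0.0119, 0.0119 and 0.0238. This split was chosen after seeing the data. Vomeronasal receptor genes, which detect pheromones, had medians of -1.49 points over 114 Vmn2r gene bodies, 4 of them called and all lower (2.18% of all gene bodies were called, with a median of -0.60 points), and of -1.26 points over 76 Vmn1r gene bodies, none called by limma. On chromosome 7, near Snrpn, the imprinted ubiquitin ligase gene Ube3a, chosen after its values were seen, had 85.3% ± 3.7 (SD, n = 5) in the Tg group and 92.5% ± 1.1 (SD, n = 5) in the WT group (limma, adjusted p = 0.0316).

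Outside the autosomes, the X chromosome, which carries the transgene, had 76.9% ± 0.32 (SD, n = 5) in the Tg group and 77.7% ± 0.31 (SD, n = 5) in the WT group without overlap. The difference of -0.816 points was close to the -0.736 points of the autosomes, where the groups did not overlap either. Of its 52789 windows 1 was called, beside 0.0335% of autosomal windows.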
